A study of Rattus norvegicus with 16 samples.

Results

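The mitochondrial ribosomal protein genes were taken as every gene symbol in the array's annotation that consists of Mrpl or Mrps, a number and at most 1 letter. In all, 74 such genes were measured out of 22093 genes, 45 with a large subunit symbol (Mrpl) and 29 with a small subunit symbol (Mrps). They were measured in RNA from the apex of the left ventricle of male RccHan Wistar rats, on an Affymetrix expression array. The age is given as 7 to 8 weeks for all 4 groups, with the same range for day 3 and day 14. Rats ate a diet with 0 ppm phenformin (the controls) or with 3000 ppm phenformin, a biguanide drug related to metformin, and their hearts were taken after 3 or 14 days. There were 4 groups of 4 arrays: control day 3, phenformin day 3, control day 14 and phenformin day 14. All 4 groups were of the same sex, strain and tissue, and the labels name no genetic change. The protocol names 5 animals a group, and the 4 arrays a group are called biological replicates.

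Mitochondria carry their own ribosomes, which translate the few proteins that mitochondrial DNA encodes, all of them core subunits of the respiratory chain complexes and of ATP synthase. All proteins of these ribosomes are encoded in the nucleus, made in the cytosol and imported. Some have a counterpart in the bacterial ribosome, and others are found only in mitochondrial ribosomes. The heart depends on this supply, and human variants in MRPL3, MRPL44 and MRPS22 cause cardiomyopathy. Phenformin inhibits respiratory complex I, several subunits of which are made on these ribosomes.

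Each gene was represented by 1 probe set, and its level is the log2 of the deposited intensity. A difference of 1 on this scale is a doubling. Levels of different genes come from different probes, so they are not set against each other here. Mrpl1 and Mrpl36 had a second probe set with a single symbol. Mrpl33 and Mrps35 occurred on the array only together with another gene's symbol and were not analysed here. Of the 74 genes, 73 had a gene ID in the annotation, and all 73 IDs were in RefSeq. The exception was Mrps36, a symbol that RefSeq lists as an older name of Kgd4. That protein was first assigned to the small subunit and is now known as a part of the oxoglutarate dehydrogenase complex. Mrps21l is a symbol for a copy of Mrps21 and met the rule. Mrps18a and Mrps30 carry small subunit names, although their proteins sit in the large subunit.

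The array medians over all probe sets lay between 4.94 and 5.13 on the log2 scale. The 99th percentiles differed more, from 16.93 (control day 14 replicate 3) to 17.79 (phenformin day 3 replicate 1). Of 7 markers of ventricular cardiomyocytes, 6 were measured, with mean levels between 13.5 and 19.7, and 3 atrial markers lay between 5.64 and 7.93. Control day 3 replicates 2 and 3 lay farthest from the other arrays on the first 2 principal components of all genes. Counts that rest on control day 3 are given below without them as well. The labels name no batch.

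At day 3, phenformin did not change any of the 74 mitochondrial ribosomal protein genes at a level the test could detect. A linear model over all genes and arrays (limma, with Benjamini-Hochberg adjustment over all genes) called 0 of the 74 at an adjusted p under 0.05, while it called 125 genes on the array, or 0.566%. At an unadjusted p under 0.05 there were 3 of the 74, against 9.38% of all genes. The median change of the large subunit genes was 0.02 on the log2 scale, and that of the small subunit genes was −0.0099, beside 0.00014 over all genes. The change was above 0 for 38 of the 74 genes, against 50.1% of all genes. Without control day 3 replicates 2 and 3 it was above 0 for 32 of the 74, again with 0 called and 4 at an unadjusted p under 0.05, while the calls over all genes fell to 3. With any 1 array left out, the count at an unadjusted p under 0.05 ran from 2 to 6, the latter without control day 3 replicate 4.

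The intervals bound what could have gone unseen. At day 3 the 95% interval of the change lay within 1.5-fold in both directions for 74 of the 74 genes, against 82.5% of all genes tested. The estimated change reached 1.2-fold for 0 of the 74, against 12.2% of all genes. The median SD within groups was 0.13 for the ribosomal protein genes and 0.17 for all genes. The all-gene figures include genes of low level, whereas 72 of the 74 remained when genes under the 50th percentile of mean log2 were dropped. These comparisons were not matched for level. With the members' median standard error, an estimated change would have had to reach 0.43 on the log2 scale, or 1.35-fold, to be called at day 3.

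At day 14 phenformin again left every one of the 74 genes short of a call, with larger differences than at day 3 in a few of them. The test called 0 of the 74 genes, against 16 genes on the array (0.0724%), and 6 of the 74 had an unadjusted p under 0.05, against 10.8% of all genes. That count was 3 without phenformin day 14 replicate 3 and 10 without replicate 2 of the same group. The median change was −0.00024 for the large subunit and 0.0074 for the small subunit, beside −0.03 over all genes. The change was above 0 for 37 of the 74 genes, against 42.2% of all genes. The 95% interval lay within 1.5-fold for 71 of the 74, against 81.1% of all genes. The other 3 genes were Mrpl19, whose interval ran from −0.25 to 0.76, Mrpl53 and Mrps26. The estimated change reached 1.2-fold for 4 of the 74, against 13.8% of all genes. An estimated change of 0.52, or 1.44-fold, would have been needed for a call at day 14.

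**Figure D1:**
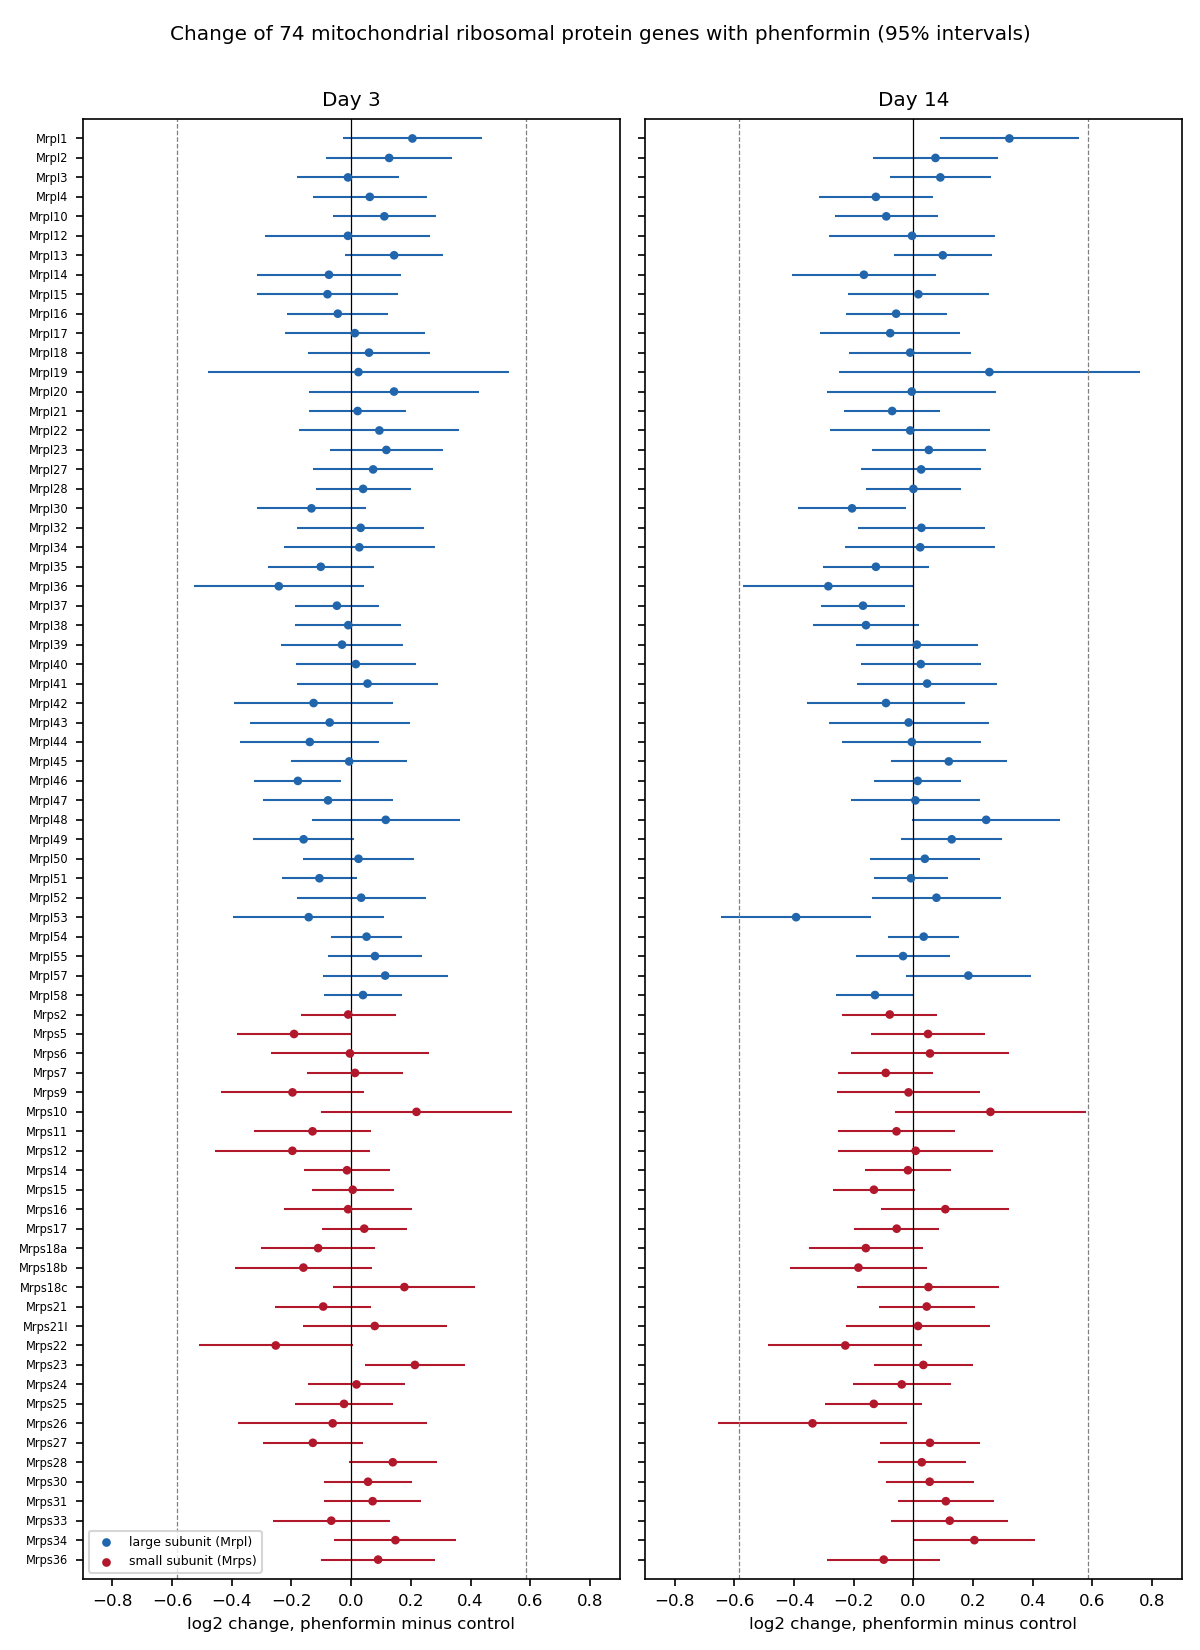
Change with phenformin of the 74 mitochondrial ribosomal protein genes at day 3 (left) and day 14 (right), as the log2 difference between the phenformin and control group means (4 arrays each) with 95% intervals; blue, large subunit symbols; red, small subunit symbols; dashed lines, 1.5-fold. All 74 intervals lie between the dashed lines at day 3 and 71 of 74 at day 14.

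The genes were also grouped by whether their protein was classed as having a counterpart in the bacterial ribosome. This is not a grouping by evolutionary origin. Mrps18a and Mrps18b were classed without a counterpart, although they are paralogs of Mrps18c. At day 3 the median change was 0.03 for 24 large subunit genes with a bacterial counterpart and −0.0098 for 23 without one, the latter including Mrps18a and Mrps30. In the small subunit it was −0.007 for 16 genes with a counterpart and −0.06 for 9 without. At day 14 the same medians were −0.0053, 0.01, −0.0046 and 0.03, in that order. The small subunit genes without a counterpart thus had the lowest of these medians at day 3 and the highest at day 14. However, the median within-gene difference between the 2 effects in these 9 genes was only 0.02. Their changes were scattered, from −0.25 to 0.21 at day 3 and from −0.34 to 0.20 at day 14. These medians are descriptions and were not tested.

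The largest positive difference at either day among the 74 was that of Mrpl1, the counterpart of a bacterial protein that forms the mobile stalk where spent tRNA leaves the ribosome. At day 14 Mrpl1 stood at 10.51, 10.19, 10.43 and 10.16 in the controls and at 10.65, 10.53, 10.59 and 10.81 with phenformin. All 4 phenformin arrays lay above all 4 controls, which was so for 1 of the 74 genes at day 14 and for 2.04% of all genes. At day 3 its controls stood at 10.55, 10.32, 10.39 and 10.02 and its phenformin arrays at 10.39, 10.58, 10.63 and 10.49, so the groups overlapped. The change of Mrpl1 was 0.21 ± 0.11 (SE) at day 3 and 0.32 ± 0.11 at day 14, or 1.25-fold, with limma adjusted p of 0.614 and 0.282. Its second probe set gave a smaller value at day 14, 0.07 ± 0.09, and 0.17 at day 3.

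The largest negative difference was that of Mrpl53, a large subunit protein with no bacterial counterpart. At day 14 Mrpl53 stood at 12.96, 12.69, 12.98 and 12.83 in the controls and at 12.41, 12.54, 12.18 and 12.74 with phenformin. A single phenformin array, replicate 4, reached into the range of the controls. At day 3 its controls stood at 12.62, 12.32, 12.59 and 12.68 and its phenformin arrays at 12.19, 12.50, 12.59 and 12.36. The change was −0.14 ± 0.12 (SE) at day 3 and −0.39 ± 0.12 at day 14, with an interval from −0.65 to −0.14 at day 14 and a limma adjusted p of 0.221.

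Mrpl36, the counterpart of a very small bacterial large subunit protein, was also lower with phenformin on both days. At day 3 its controls stood at 7.62, 7.76, 7.64 and 7.72, and its phenformin arrays at 7.32, 7.15, 7.78 and 7.52. At day 14 its controls stood at 8.21, 8.09, 8.14 and 8.10 and its phenformin arrays at 7.62, 7.86, 7.66 and 8.27. On each day 3 phenformin arrays lay below all controls and 1 lay above them all. The spread was wider with phenformin, with SDs of 0.27 and 0.30 at day 3 and day 14 against 0.07 and 0.05 in the controls. The changes were −0.24 and −0.29 (SE 0.13 each), and the second probe set of Mrpl36 gave −0.35 and −0.43, neither called.

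Mrps22, a mitochondria-specific small subunit protein, had the largest negative difference of the 74 at day 3. Its day 3 controls stood at 12.10, 12.02, 12.14 and 11.57 and its phenformin arrays at 11.85, 11.74, 11.80 and 11.43. Its day 14 controls stood at 12.08, 11.87, 12.16 and 11.98 and its phenformin arrays at 11.64, 11.83, 11.75 and 11.96. Control day 3 replicate 4 was lower than 3 of the 4 phenformin arrays of that day, and the groups overlapped on both days. The change was −0.25 ± 0.12 (SE) at day 3 and −0.23 ± 0.12 at day 14, with limma adjusted p of 0.544 and 0.526. The day 3 change was −0.13 without control day 3 replicates 2 and 3.

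A pair of further day 3 differences were small but tight. Mrpl46, which has no bacterial counterpart, stood at 10.43, 10.40, 10.37 and 10.40 in the day 3 controls and at 10.21, 10.27, 10.29 and 10.13 with phenformin. Mrpl49, likewise mitochondria-specific, stood at 8.72, 8.53, 8.53 and 8.57 in these controls and at 8.42, 8.41, 8.46 and 8.43 with phenformin. For both genes, and for Mrpl51, every phenformin array lay below every control at day 3. These were 3 of 74 genes, or 4.05%, against 3.87% of all genes, while 0 of the 74 had all phenformin arrays above all controls, against 2.34%. The changes were −0.18 for Mrpl46 (limma adjusted p of 0.37), −0.16 for Mrpl49 (0.578) and −0.11 for Mrpl51 (0.639). At day 14 Mrpl49 differed the other way, by 0.13 ± 0.08 (SE), as its phenformin arrays stood at 8.42, 8.58, 8.72 and 8.5 against 8.51, 8.23, 8.52 and 8.44 in the controls.

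Among small subunit genes, Mrps23 had the smallest p of the 74 at day 3. It stood at 9.46, 9.38, 9.32 and 9.59 in the day 3 controls and at 9.76, 9.47, 9.72 and 9.67 with phenformin, a difference of 0.21 ± 0.08 (SE) with a limma adjusted p of 0.337. The difference was 0.12 without control day 3 replicates 2 and 3. At day 14 its change was 0.03. At day 14 the groups of Mrps15 and of Mrpl58, the peptidyl-tRNA hydrolase that frees stalled chains on the ribosome, did not overlap, with phenformin lower. These were 2 of 74 genes, against 3.09% of all genes. Mrps15 stood at 10.88, 10.85, 10.97 and 10.91 in the day 14 controls and at 10.68, 10.83, 10.79 and 10.78 with phenformin, a change of −0.13 ± 0.06 (SE) that was not called.

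**Figure D2:**
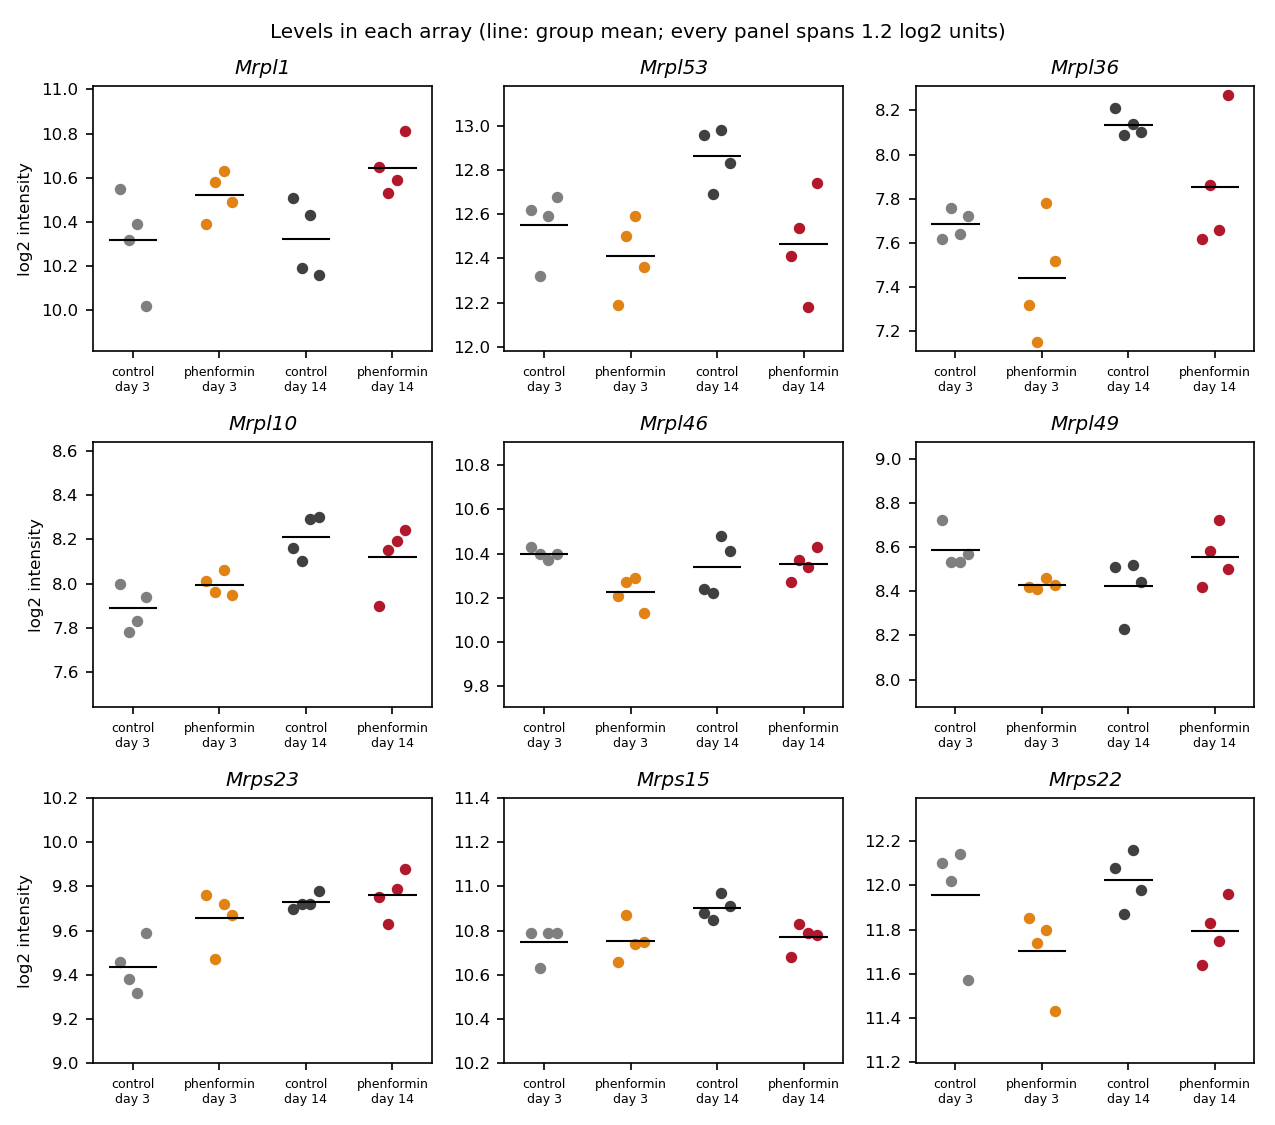
Levels of 9 mitochondrial ribosomal protein genes in each of the 16 arrays (y axis, log2 intensity; 1 point per array, line at the group mean of 4 arrays; every panel spans 1.2 log2 units). Mrpl1 at day 14, Mrpl46 and Mrpl49 at day 3 and Mrps15 at day 14 have phenformin arrays apart from the controls of the same day, and the other pairs of groups of the same day overlap.

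Other members with known parts in heart disease or in the ribosome's function were not called either. Mrpl3, the counterpart of a bacterial protein in the core of the large subunit, changed by −0.01 ± 0.08 (SE) at day 3 and by 0.09 ± 0.08 at day 14. Mrpl44, a protein with an RNase III fold, changed by −0.14 ± 0.11 and −0.0055 ± 0.11. Mrpl12, the stalk protein that also binds the mitochondrial RNA polymerase, changed by −0.01 ± 0.13 and −0.0048 ± 0.13. Mrps12, the counterpart of the bacterial protein that sets decoding accuracy, changed by −0.20 ± 0.12 and 0.0074 ± 0.12. The limma test called none of these 4 genes at either day.

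The paralogs Mrps18a, Mrps18b and Mrps18c occupy 3 different places in the ribosome. Mrps18a changed by −0.11 and −0.16 at day 3 and day 14 (SE 0.09) and Mrps18b by −0.16 and −0.18 (SE 0.11). Mrps18c changed by 0.18 and 0.05 (SE 0.11). The signs thus differed between paralogs, and none of the 6 values was called. Mrps36, the dehydrogenase subunit, changed by 0.09 and −0.10 (SE 0.09).

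Averaging the effect over both days gave the narrowest intervals. Again 0 of the 74 genes was called by limma, against 267 genes on the array (1.21%). At an unadjusted p under 0.05 there were 14 of the 74, or 18.9%, against 13% of all genes, 7 of them higher and 7 lower with phenformin. The 7 higher were Mrpl1, Mrpl13, Mrpl48, Mrpl57, Mrps10, Mrps23 and Mrps34, and the 7 lower were Mrpl30, Mrpl36, Mrpl37, Mrpl53, Mrps18a, Mrps18b and Mrps22. Without control day 3 replicates 2 and 3 it was 8 of the 74, and the calls over all genes fell from 267 to 33. It was also 8 without control day 3 replicate 4 and without phenformin day 14 replicate 3. The smallest adjusted p was that of Mrpl1, 0.117, with an averaged change of 0.26 ± 0.08 (SE), and the next was that of Mrpl53, 0.148, with −0.27 ± 0.08. These were 0.259 and 0.206 without control day 3 replicates 2 and 3. The averaged effect was above 0 for 34 of the 74, against 44% of all genes, and for 30 without control day 3 replicates 2 and 3. Its 95% interval lay within 1.5-fold for 74 of 74 genes, against 93.1% of all genes. Only Mrpl1, Mrpl36 and Mrpl53 had an averaged change of at least 1.2-fold, 3 of 74 against 7.14% of all genes.

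The difference between the day 14 effect and the day 3 effect was called for 0 of the 74 genes and for 0 genes on the array, or 0%. At an unadjusted p under 0.05 it was 2 of the 74 without control day 3 replicates 2 and 3. With all arrays it was 1 of the 74, against 7% of all genes. That gene was Mrpl49, with a difference of 0.29 ± 0.11 (SE) and a limma adjusted p of 0.634. The 95% interval of this difference lay within 1.5-fold for 71 of the 74 genes, against 62.3% of all genes. The change was above 0 on both days for 23 of the 74 genes (31.1%, against 23.4% of all genes) and below 0 on both for 22 (29.7%, against 31.1%).

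Both subunits moved together from array to array, by more than they differed between diets on the same day. Each gene was centred on its mean over the 16 arrays, and the centred values were averaged within each subunit. The means of the large subunit spanned 0.24 between the lowest and the highest array, those of the small subunit spanned 0.21, and the large subunit minus the small subunit spanned only 0.08, from −0.05 to 0.03. At day 3 the large subunit stood at −0.05 ± 0.06 (SD, n = 4) in controls and at −0.04 ± 0.04 with phenformin. At day 14 it stood at 0.05 ± 0.06 and 0.04 ± 0.09. The small subunit stood at −0.03 ± 0.07 and −0.04 ± 0.03 at day 3 and at 0.05 ± 0.05 and 0.03 ± 0.09 at day 14. In tissue RNA, fewer cells of a type and less of an RNA per cell cannot be told apart.

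The day 14 phenformin group had the widest spread of the 4, with 1 array well below the others. Phenformin day 14 replicate 1 had means of −0.08 and −0.09 for the large and the small subunit, while replicate 4 had 0.12 and 0.10. Replicate 1 was also at −0.10 for 27 genes of mitochondrial ribosome assembly, at −0.11 for 16 mitochondrial translation factors and at −0.07 for 16 mitochondrial tRNA synthetases. Replicate 4 was at 0.18, 0.19 and 0.22 for the same lists.

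**Figure D3:**
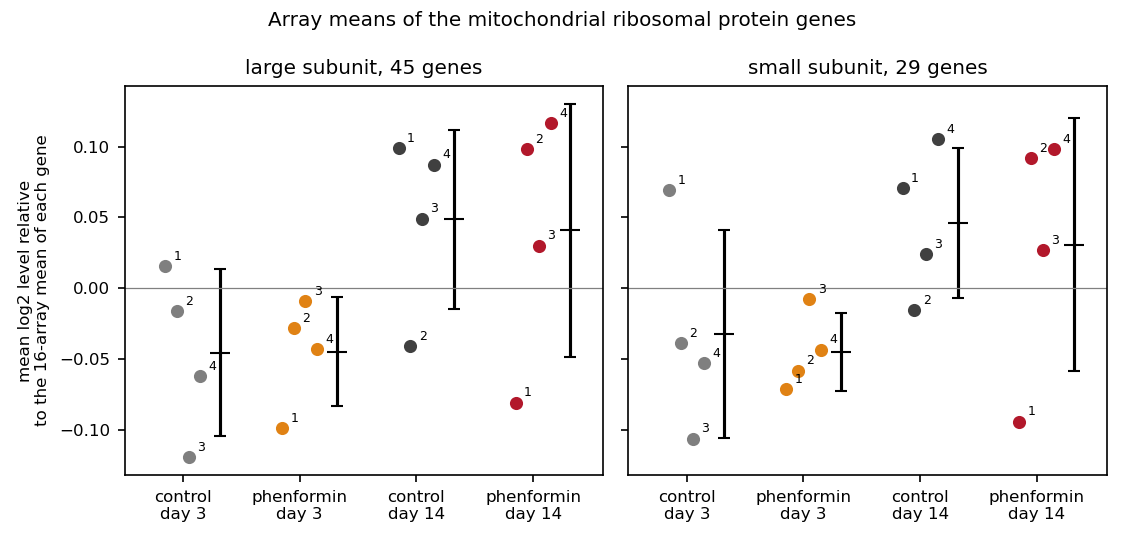
Mean centred log2 level of the 45 large subunit and 29 small subunit genes in each of the 16 arrays (numbers mark the replicate; bars, group mean ± SD, n = 4). Phenformin and control overlap on each day, the day 14 means lie above the day 3 means in both diets, and phenformin day 14 replicate 1 lies far below its group.

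The ribosomal protein genes tended to be higher at day 14 than at day 3, in both diets and by small amounts. In controls the change was above 0 for 60 of the 74 genes, or 81.1%, against 54.3% of all genes, with a median of 0.08 beside 0.01 over all genes. With phenformin it was above 0 for 56 of the 74, or 75.7%, against 47% of all genes, with a median of 0.09 beside −0.0097. These comparisons share no arrays. Both changes were above 0 for 49 of the 74 genes (66.2%, against 26.4% of all genes) and both below 0 for 7 (9.46%, against 25.1%). No gene was called: limma found 0 of the 74 in controls, where it called 0 genes on the array (0%), and 0 of the 74 with phenformin, where it called 1 gene (0.00453%). At an unadjusted p under 0.05 there were 9 of the 74 in controls, against 9.46% of all genes, and 7 with phenformin, against 7.79%, and all of these differences were above 0. Without control day 3 replicates 2 and 3 the difference in controls was above 0 for 55 of the 74, and 6 had an unadjusted p under 0.05. Leaving out any 1 array kept it above 0 for 53 to 65 genes in controls and for 51 to 61 with phenformin. The count at an unadjusted p under 0.05 moved more. In controls it was 15 without control day 3 replicate 1, and 6 without control day 3 replicate 3 or control day 14 replicate 4. With phenformin it was 15 without phenformin day 14 replicate 1 and 4 without replicate 2 of that group. The 95% interval of the time difference lay within 1.5-fold for 73 of the 74 in controls, against 82.8% of all genes, and for 72 with phenformin, against 82.7%. Age, time on the diet and the handling of each day's samples cannot be told apart in this comparison.

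Mrpl10, which anchors the ribosome's flexible factor-binding stalk, had the smallest p of the 74 for the time difference in controls. It stood at 8.00, 7.78, 7.83 and 7.94 at day 3 and at 8.16, 8.10, 8.29 and 8.30 at day 14, a difference of 0.33 ± 0.08 (SE) with a limma adjusted p of 0.173. Mrps23 stood at 9.70, 9.72, 9.72 and 9.78 in the day 14 controls, beside the day 3 values given above. Its difference was 0.29 ± 0.08 (SE), with an adjusted p of 0.204. In both genes all day 14 controls lay above all day 3 controls. Without control day 3 replicates 2 and 3 the differences were 0.25 and 0.20, with adjusted p of 0.684 and 0.754, and the smallest adjusted p of the 74 was then that of Mrpl36, 0.645.

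Mrpl36 had the largest time difference in both diets. It was 0.45 ± 0.13 (SE) higher at day 14 in controls, 1.37-fold, and 0.41 ± 0.13 higher with phenformin, 1.33-fold, with limma adjusted p of 0.259 and 0.458. In controls, all day 14 arrays lay above all day 3 arrays for Mrpl10, Mrpl36, Mrpl53, Mrpl58, Mrps15 and Mrps23. That was 6 of 74 genes, or 8.11%, against 2.52% of all genes. The reverse held for Mrpl49, 1 of 74, against 2.13%. The day 14 controls of Mrpl36 and Mrpl53 also enter the phenformin comparison of that day, so these differences are not independent of it. With phenformin, 5 of the 74 had all day 14 arrays above all day 3 arrays, against 2.09%, and 0 had them below, against 2.24%.

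Of these 5, Mrps33, Mrps27, an RNA-binding pentatricopeptide repeat protein, and Mrpl45, at the exit of the nascent chain tunnel, had the smallest p. Mrps33 stood at 6.78, 6.56, 6.70 and 6.50 at day 3 with phenformin and at 6.87, 6.80, 6.99 and 7.07 at day 14, a difference of 0.30 ± 0.09 (SE). Mrps27 stood at 9.17, 9.04, 9.04 and 9.08 and then at 9.37, 9.38, 9.33 and 9.20, a difference of 0.24 ± 0.08. Their limma adjusted p were 0.446 and 0.463.

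Marker lists of other cell types were set beside the time difference, where limma called none of their genes. For phenformin against control it called 0 at day 3 and 0 at day 14. In the averaged effect it called 2 of 5 red blood cell and 1 of 3 mesothelial markers, all lower, against 1.21% of all genes. The change with phenformin was above 0 for 0 of 5 red blood cell and 0 of 5 platelet markers on each day. All-gene shares were 50.1% and 42.2%. It was above 0 for 0 and 1 of 6 fibroblast and 4 and 6 of 6 ventricular markers at day 3 and day 14. The 5 measured of 6 listed endothelial markers had mean levels between 10.4 and 15.03. Their centred mean ranged from −0.09 to 0.18 in day 3 controls, from −0.36 to 0.13 in day 14 controls, from 0.17 to 0.28 with phenformin at day 3 and from −0.60 to −0.05 with phenformin at day 14. From day 3 to day 14, 0 of these 5 markers had a change above 0 in either diet.

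For 6 smooth muscle and pericyte markers the change was above 0 for 2 in controls and 0 with phenformin, with medians of −0.20 and −0.19. For 6 fibroblast markers it was above 0 for 1 and 3, with medians of −0.40 and −0.04. Other lists differed in sign between diets: it was above 0 for 5 and 0 of 5 platelet markers and for 1 and 6 of 6 macrophage markers. For 5 red blood cell markers it was above 0 for 2 and 0, and for 4 lymphocyte markers for 1 and 0. In controls and with phenformin it was above 0 for 2 and 3 of 3 atrial and 2 and 2 of 3 mesothelial markers. The numbers were 2 and 2 of 4 adipocyte and 2 and 2 of 2 Schwann cell markers, whose mean levels were at most 5.01 and 5.11. The centred mean of the 6 ventricular cardiomyocyte markers lay between −0.05 and 0.06 on every array. Of these 6, 4 had a mean level above 16.93, the lowest 99th percentile of an array, and saturation was not tested. The part of the cell mix in the time difference, or in the differences with phenformin, was not tested.

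**Figure D4:**
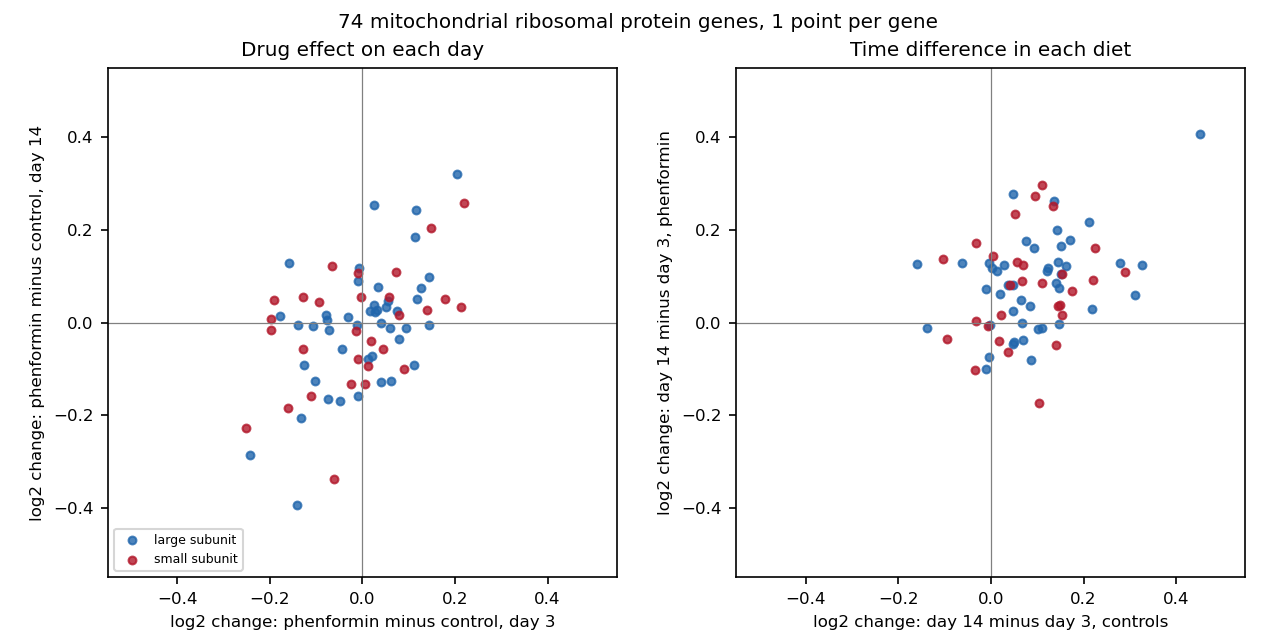
Each point is 1 of the 74 mitochondrial ribosomal protein genes. Left, log2 change with phenformin at day 3 (x) and day 14 (y), with 23 genes above 0 on both axes and 22 below on both; right, log2 change from day 3 to day 14 in controls (x) and with phenformin (y), with 49 genes above 0 on both axes and 7 below on both.

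Other genes of the mitochondrial translation pathway were likewise not called with phenformin. The lists held 5 further ribosome proteins with other symbols, 27 assembly factors and 16 translation factors. They also held 16 of 17 listed tRNA synthetases and 19 genes of mitochondrial DNA expression and its regulation. In either direction limma called 0 of them at day 3, against 0.566% of all genes, and 0 at day 14, against 0.0724%. In lists of this size, counts of 0 are near those shares. At an unadjusted p under 0.05 the counts were 0, 4, 3, 1 and 3 at day 3, where the share of all genes was 9.38%. They were 1, 3, 0, 2 and 3 at day 14, where it was 10.8%. In the averaged effect 0 were called, against 1.21%. The counts at an unadjusted p under 0.05 were then 0, 6, 2, 4 and 4, against 13% of all genes. The median changes of the 5 lists at day 3 lay between −0.04 and 0.01. The nearest to a call was Trmt10c, a subunit of the enzyme that frees the 5′ ends of mitochondrial tRNAs, at −0.34 ± 0.08 (SE) at day 3 with an adjusted p of 0.0611. Mterf4, a factor of large subunit assembly, was 0.48 ± 0.13 higher at day 14 (adjusted p of 0.167).

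In the same pathway, Dap3, a small subunit protein, changed by −0.25 at day 3 and 0.14 at day 14. Gatb, a subunit of the enzyme that makes glutaminyl-tRNA in mitochondria, changed by 0.53 at day 3, and Guf1, an elongation factor, by −0.31. None of the regulators of nuclear genes for mitochondria was called. Ppargc1b, a coactivator, changed by 0.41 and 0.43 (SE 0.15) at day 3 and day 14. Myc changed by −0.55 and −0.05 (SE 0.24), Nrf1 by 0.0015 and 0.00068, Gabpa by −0.21 and −0.09, Ppargc1a by −0.15 and −0.15, and Tfam by −0.08 and −0.02.

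Genes known for their fast response to handling and stress were called at day 3. Of 19 measured immediate early genes, limma called 2 at day 3, both lower with phenformin, against 0.566% of all genes. They were Nr4a1, with a change of −2.48, and Atf3, with −1.69 on the log2 scale (limma adjusted p of 0.014 and 0.0322). At day 3 the change was above 0 for 0 of the 19, against 50.1% of all genes. An unadjusted p under 0.05 was found for 16, against 9.38%. At day 14 the change was above 0 for 4, with 0 called and 7 at an unadjusted p under 0.05, against 10.8%. In the averaged effect 5 were called, all lower, against 1.21%. The mean of this list varied more among control day 3 arrays (0.60 ± 0.63, SD, n = 4) than among phenformin day 3 arrays (−0.42 ± 0.14), and was highest in control day 3 replicates 3 and 2, at 1.39 and 0.75. Without these 2 arrays neither Nr4a1 nor Atf3 was called at day 3. They changed by −1.63 and −1.10, with limma adjusted p of 0.265 and 0.334. Their averaged effects were still called without these arrays, at −1.68 and −1.31 (limma adjusted p of 0.0224 and 0.0172). At day 14, with all arrays, they changed by −1.72 and −1.51 and were not called (limma adjusted p of 0.137 and 0.111). On that day every phenformin array lay below every control for both genes, which was so for 3.09% of all genes. These were the 2 genes of smallest p in the list on that day.

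From day 3 to day 14, most genes of 4 of the 5 pathway lists had a change above 0 in both diets. In controls these were 18 of 27 assembly factors, 13 of 16 translation factors, 14 of 16 tRNA synthetases and 13 of 19 genes of mitochondrial DNA expression. With phenformin the numbers were 21, 15, 14 and 17, in that order. Of the 5 further ribosome proteins, 3 had a change above 0 in controls and 2 with phenformin, with medians of 0.15 and −0.0064. Limma called 0 genes of the 5 lists in either diet, against 0% of all genes in controls and 0.00453% with phenformin. At an unadjusted p under 0.05 there were 5, 2, 1, 3 and 0 in controls, where the share of all genes was 9.46%, and 4, 2, 5, 5 and 1 with phenformin, where it was 7.79%.

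The promoters of the 74 genes were searched for the binding motifs of factors known to drive nuclear genes for mitochondria. RefSeq promoters of build GRCr8 were at hand for 59 of the 74 genes, and the 250 bases before the start were read on both strands. The motif of NRF1, GCGCA and GCGC with any 1 base between them, occurred in 7 of 59 (11.9%), against 4.17% of all 27457 promoters of the same length and 6.03% of the 16275 promoters of measured genes. Its form with T as that base, a subset of the same matches, occurred in 4 (6.78%), against 0.849% and 1.16%. The motif of GABP, CCGGAAG, occurred in 12 (20.3%), against 7.74% and 10.3%. The motif of the oestrogen-related receptors, TCAAGGTCA, occurred in 0 of 59, against 0.368% and 0.295%. The REV-ERB element TAGGTCA occurred in 2 (3.39%), against 2.26% and 1.92%, and the E-box CACGTG in 4 (6.78%), against 5.79% and 6.76%. These are matches of letters and not sites shown to be bound.

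The first pair below shows the NRF1 match in Mrpl44, a cardiomyopathy gene, and in Mrps18b. The second pair shows the GABP matches in Mrpl53 and Mrpl36, which had the largest negative differences at day 14 among the genes with a match. Each is the 250 bases before the start, 5′ to 3′ on the strand of the gene, from RefSeq on build GRCr8, with the matches in capitals. Mrpl44 lies at chr9:88554800-88555049 (plus strand), Mrps18b at chr20:2842756-2843005 (plus), Mrpl53 at chr4:117172793-117173042 (plus) and Mrpl36 at chr1:31795122-31795371 (minus).
Mrpl44: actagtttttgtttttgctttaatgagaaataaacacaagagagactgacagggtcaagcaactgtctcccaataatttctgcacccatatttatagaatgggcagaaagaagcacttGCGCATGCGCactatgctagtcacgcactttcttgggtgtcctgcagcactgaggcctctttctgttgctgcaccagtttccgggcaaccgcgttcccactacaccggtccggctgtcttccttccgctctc
Mrps18b: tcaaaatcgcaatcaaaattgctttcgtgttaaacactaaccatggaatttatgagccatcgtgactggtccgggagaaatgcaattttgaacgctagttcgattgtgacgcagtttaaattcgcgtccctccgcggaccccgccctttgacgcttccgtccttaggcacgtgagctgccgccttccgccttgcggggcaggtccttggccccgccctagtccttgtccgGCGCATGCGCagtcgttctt
Mrpl53: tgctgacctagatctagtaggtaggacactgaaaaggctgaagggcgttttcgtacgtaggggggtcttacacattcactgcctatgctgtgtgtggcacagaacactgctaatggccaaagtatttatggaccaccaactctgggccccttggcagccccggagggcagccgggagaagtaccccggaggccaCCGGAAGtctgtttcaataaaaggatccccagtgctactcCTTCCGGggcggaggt
Mrpl36: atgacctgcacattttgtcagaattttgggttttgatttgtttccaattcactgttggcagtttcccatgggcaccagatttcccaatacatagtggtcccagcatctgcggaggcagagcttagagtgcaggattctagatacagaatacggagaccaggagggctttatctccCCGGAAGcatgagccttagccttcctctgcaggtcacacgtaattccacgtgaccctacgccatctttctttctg

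The Mrpl53 promoter holds the GABP letters at 2 places, 1 on each strand, and the NRF1 letters of Mrps18b end 11 bases before the start. The changes with phenformin of genes with and without a match are given as descriptions. The median change of the 7 genes with the NRF1 motif was −0.0067 at day 3 and −0.0055 at day 14, against 0.009 and 0.009 for the 52 without. For the 12 genes with the GABP motif the medians were 0.056 and 0.051, against −0.0067 and −0.0048 for the 47 without. For the 4 genes with the E-box, Mrpl30, Mrpl36, Mrps18b and Mrps18c, the medians were −0.15 and −0.20, against 0.01 and 0.01 for the 55 without. The REV-ERB element occurred in Mrpl47 and Mrpl53, with medians of −0.11 and −0.19, against 0.01 and 0.01 for the 57 without. These differences were not tested, and Mrpl36 and Mrpl53, which had the largest negative averaged changes, are among these few genes.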

How the data were processed

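The authors deposited linear intensities, 1 per probe set and array, which the submitters' processing notes credit to RMA without a version. Neither label nor file names the annotation's build. These intensities were moved to the log2 scale with no further normalisation and no filter. For each symbol, the probe set with a single symbol and the highest mean over 16 arrays was used, which gave 22093 genes from 68842 probe sets. RMA sets arrays relative to each other, so a change shared by nearly all genes would not show.

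All 16 arrays entered a single fit of the 4 group means with limma (version 3.58.1, R version 4.3.3) with moderation by a mean-variance trend. The p-values are two-sided, with Benjamini-Hochberg adjustment over all genes and a threshold of 0.05. Files were read with the data.table package (version 1.17.8). The procedure was tested on simulated data. The p-values measure the spread between arrays called biological replicates, and the number of arrays limits their precision.

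The members and gene lists were chosen with earlier results of these data known. The genes named are those with the smallest p and the largest change in each subunit and comparison, members of known role, and the 2 of smallest p from each pathway list at each day. Mrpl19, Mrpl45, Mrpl51, Mrpl57, Mrps33, Mrpl30, Mrpl47, Mrps18b, Mrps18c, Nrf1, Myc, Gabpa, Ppargc1a and Tfam were named after their values were seen. The day 14 against day 3 comparison with phenformin was added after seeing the data. Alternatives covered filters, normalisation, moderation, arrays left out, probe set choice and a replicate block.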

Additional observations from a re-analysis of the deposited data

Results flagged for a closer look

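In 7 of 136 groups tested, 1 array of a gene lay apart from the other 3 of its group by Dixon's criterion, which chance meets in about 1 in 20 groups. With phenformin at day 14, replicate 1 stood at 8.73 for Mrpl12 against 9.18 to 9.23 in the others, and at 12.22 for Mrps18c against 12.45 to 12.48. For Mrpl37, replicate 4 was the lone array in both day 3 groups, at 7.55 in controls against 7.37 to 7.40 and at 7.28 with phenformin against 7.40 to 7.41. With phenformin at day 3, replicate 4 stood at 9.94 for Mrps10 against 9.29 to 9.36, and replicate 2 stood at 6.26 for Mrps28 against 6.12 to 6.14. In day 3 controls, replicate 2 stood at 10.63 for Mrps15, where the other 3 stood at 10.79.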

How the results depend on the processing

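Under every alternative that gives a value, 0 of the mitochondrial ribosomal protein genes was called in any of the 6 comparisons. A subunit median counted as unchanged if it moved by at most the within-group SD of array medians. That SD was 0.0632 (large) or 0.0583 (small). By this rule, and with counts unchanged at 0, 288 of 288 alternative values stayed the same. The margin is wider than the medians at either day, so a change of their sign also passes it. With each array left out in turn, the smallest adjusted p of any member was 0.0517, that of Mrps22 in the averaged effect without control day 3 replicate 4. Under the other settings it was 0.0752, that of Mrpl1 in the averaged effect after dropping genes under the 50th percentile, which left 72 members. With 1 array left out, the median change ranged from −0.02 to 0.03 (large subunit) and from −0.02 to 0.02 (small) at day 3, and from −0.03 to 0.06 and −0.04 to 0.04 at day 14. Calls over all genes moved more: with 1 array left out they ranged from 22 to 149 at day 3, from 3 to 29 at day 14 and from 131 to 353 for the averaged effect, against 125, 16 and 267. Of 71 values of members picked by the naming rule, 9 changed sign under some setting, each within 0.1 of 0, and 0 passed the threshold. The test on only the 8 arrays compared cannot give the averaged effect or the difference of effects, and the medians were not recomputed under filters, moderation settings or rank scores.

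With replicate number as a block, 0 members were called, with 2, 6, 10, 1, 7 and 6 at an unadjusted p under 0.05 at day 3, at day 14, averaged, for the difference, for time in controls and for time with phenformin, and 113, 5, 241, 0, 0 and 0 calls over all genes. The numbers did not pair the arrays: over 24 same-numbered pairs the correlation of deviations ran from −0.18 to 0.22, and 3 exceeded 0.1.

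With 4 arrays a group, the estimated change of a typical member had to reach about 1.35-fold at day 3 and 1.44-fold at day 14 to be called. Real changes of such a size or smaller can have gone uncalled, and values are RNA levels, not ribosome amounts.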
